A study of Mus musculus with 192 samples.

Results

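Inflammatory signalling in innate immune cells is restrained by proteins that act as brakes, many of which the same signals induce. The messenger RNAs of 10 genes for such brakes were followed in mouse bone marrow-derived dendritic cells: Tnfaip3, Tnip1 and Tnip3, which act on ubiquitin-dependent NF-kappaB signalling; Zc3h12a, Zc3h12c, Zfp36 and Zfp36l1, which act on mRNA; Irak3, which acts on the receptor complex; and Dusp1 and Dusp2, which act on MAP kinases. The genes were chosen by name, and they are 10 of the 23481 gene rows in the table and 10 of the 4720 that passed the filter on low counts. The libraries fell into 64 groups of 3: a control named Ctrl, 7 groups given 1 ligand of a pattern recognition receptor, 21 given a pair and 35 given a triplet. The ligands carry the names PAM, LPS (lipopolysaccharide), HMW, Zymosan (zymosan depleted in the labels; zymosan is a yeast cell wall preparation), SeV, cGAMP (3',3'-cGAMP, a cyclic dinucleotide) and CpGB, and no doses are stated in the labels. All groups, Ctrl included, held cells of female C57BL/6J mice aged 6 to 8 weeks, with no transgene or deletion named, grown from marrow in GM-CSF at 15 ng/mL, plated at 100000 cells per well and lysed after 6 h of stimulation. A single time point and a bulk culture limit the groups as models: early and late parts of a response cannot be separated, and the cells of a well were not sorted.

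Tnfaip3 encodes A20, a ubiquitin-editing enzyme that shuts off NF-kappaB signalling downstream of Toll-like and TNF receptors, and Tnip1 and Tnip3 encode the A20-binding proteins ABIN1 and ABIN3. Zc3h12a encodes Regnase-1, an endonuclease that cleaves stem-loops in the 3' untranslated regions (UTRs) of cytokine mRNAs, Zc3h12c encodes its relative Regnase-3, and Zfp36 (tristetraprolin) and Zfp36l1 encode zinc finger proteins that bind AU-rich elements and recruit the deadenylation machinery. Irak3 encodes IRAK-M, a kinase-like protein with little catalytic activity that dampens signalling from MyD88, and Dusp1 and Dusp2 encode phosphatases that inactivate MAP kinases. In dendritic cells and macrophages many of these genes are themselves targets of NF-kappaB or MAP kinases, which makes them negative feedback.

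Promoter sequences of all 10 genes were found in RefSeq (GRCm38.p6, 250 bases before to 50 bases after an annotated start, 13 promoters in all). The main promoter of Tnfaip3 and those of Tnip1 and Dusp1 are shown as examples with matches to motifs of NF-kappaB, AP-1 or CREB, factors that act below these receptors, and the capitals mark those matches, found on either strand. Motifs searched were the kappaB-like motif (GGG, any 3 bases, TTCC), the cAMP response element or CRE (TGACGTCA), the AP-1 motif (TGANTCA) and an ISRE-like motif (GAAA, any 2 bases, GAAA).
Tnfaip3 promoter, chr10:19015361-19015660, minus strand: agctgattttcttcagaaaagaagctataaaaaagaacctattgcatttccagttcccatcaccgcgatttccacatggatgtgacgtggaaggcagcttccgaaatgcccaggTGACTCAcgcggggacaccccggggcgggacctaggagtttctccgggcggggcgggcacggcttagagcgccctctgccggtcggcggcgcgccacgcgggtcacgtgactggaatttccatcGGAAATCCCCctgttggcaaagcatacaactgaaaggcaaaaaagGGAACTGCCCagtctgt
Tnip1 promoter, chr11:54962891-54963190, minus strand: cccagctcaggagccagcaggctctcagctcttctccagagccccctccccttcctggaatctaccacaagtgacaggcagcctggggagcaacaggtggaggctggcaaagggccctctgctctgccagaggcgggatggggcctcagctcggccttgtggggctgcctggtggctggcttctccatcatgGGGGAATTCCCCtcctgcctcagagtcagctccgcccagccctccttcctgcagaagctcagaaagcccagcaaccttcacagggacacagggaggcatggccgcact
Dusp1 promoter, chr17:26508423-26508722, minus strand: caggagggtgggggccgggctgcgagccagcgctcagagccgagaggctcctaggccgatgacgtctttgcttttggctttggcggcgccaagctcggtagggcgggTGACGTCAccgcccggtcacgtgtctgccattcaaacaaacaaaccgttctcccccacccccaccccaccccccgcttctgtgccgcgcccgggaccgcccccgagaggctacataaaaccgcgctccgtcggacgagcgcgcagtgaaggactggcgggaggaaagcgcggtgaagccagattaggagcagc
The Tnfaip3 promoter held kappaB-like matches starting 12 bases before and 33 bases after the start and an AP-1 match 136 bases before it. The Tnip1 promoter held a pair of overlapping kappaB-like matches, on opposite strands of a palindrome, 58 and 56 bases before the start. The Dusp1 promoter held a CRE 143 bases before the start. The other matches were a kappaB-like site 90 bases before the alternative start of Tnfaip3 and an AP-1 site 129 bases before the start of Zfp36l1. Of 32851 RefSeq mouse promoters of the same length, 5.56% held the kappaB-like motif, 1.79% the CRE, 7.81% the AP-1 motif and 3.44% the ISRE-like motif, which no promoter of the 10 genes held.

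The mRNAs of the brakes can themselves carry the AU-rich element that ZFP36 proteins bind. Its core, TATTTAT, was searched in the 3' UTR of 1 transcript each of 9 of the genes (GENCODE M21, GRCm38). It occurred 3 times in Zfp36, Zfp36l1 and Dusp1, 2 times in Zc3h12c, 1 time in Tnip3 and Dusp2, and not in Tnip1, Zc3h12a or Irak3. Of 21005 genes with an annotated 3' UTR, 27.6% held at least 1 and 10.4% held 2 or more. These 3' UTRs differ in length, from 581 bases in Dusp2 to 4062 in Zc3h12c (774 in Zfp36, 1835 in Zfp36l1 and 690 in Dusp1), against a median of 961 over all genes. The first site of the 4 genes with 2 or more is shown with 10 bases on each side, the core in capitals, because Zfp36 and Zfp36l1 are among the genes that carry it.
Zc3h12c: ctataatcatTATTTATaggaacaaag
Zfp36: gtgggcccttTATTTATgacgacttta
Zfp36l1: tatcaaaacgTATTTATtgccaaacta
Dusp1: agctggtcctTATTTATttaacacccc

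Expression was read as counts of unique molecular identifiers (UMIs), each marking 1 cDNA molecule. Totals per library ran from 46564 to 610234 with a median of 171616, and the Ctrl libraries held 61823 to 89530. The 10 genes took 90301 UMIs, 0.264% of all, from 482 for Zfp36l1 to 32639 for Tnfaip3. In the 3 Ctrl libraries together Tnfaip3 had 59 counts, Zfp36 64, Tnip3 54 and Tnip1 38, against 13 each for Zc3h12a and Zfp36l1, 12 for Dusp1, 6 for Dusp2, and 2 each for Zc3h12c and Irak3. Fold changes of the last 6 genes against Ctrl are therefore imprecise, and for Zc3h12c and Irak3 the ratio of counts is given with its 95% counting interval, which covers counting error only. The dendritic cell and antigen presentation list was detected in full (7 of 7 genes) at a summed 5720 to 7784 CPM over the groups (5910 in Ctrl). H2-Aa and H2-Ab1 were its largest members in Ctrl (2126 and 1525 CPM). The group medians of H2-Aa, H2-Ab1, Cd74 and Ccr7 lay above Ctrl. Those of Itgax (294 against 421 CPM), Csf2ra (662 against 863) and Flt3 (95 counts in all) lay below it. The macrophage list (3 of 4 genes in the table) was highest in Ctrl at 2209 CPM and lowest in LPS + cGAMP + CpGB at 684, and the neutrophil list (5 of 6) ran from 341 to 697. The T cell, B cell, NK cell, mast cell, erythroid and fibroblast lists each stayed at or under 8.73 CPM, with the erythroid genes at 0 in every library. The part of these differences in the results was not tested, and in bulk samples fewer cells of a type and less RNA per cell cannot be told apart.

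To ask which ligand engaged which brake, each single ligand was compared with Ctrl. Values are CPM scaled by TMM factors, and a gene was called changed at an edgeR adjusted p under 0.05 with a log2 fold change of at least 1 in size. Of 70 comparisons (10 genes, 7 ligands), 19 were called higher and 1 lower, against 8.7% and 4.95% of all tests over the 4720 genes. PAM and CpGB raised 5 of the 10 genes each, LPS and Zymosan 4 each, cGAMP 1, and LPS lowered 1. HMW and SeV called none in edgeR's quasi-likelihood test and none in DESeq2: with HMW no gene had an unadjusted p under 0.05, and with SeV 2 did, both higher. The shares of all tested genes called higher and lower were 8.01% and 5.89% with PAM, 10.8% and 6.27% with CpGB, 14.6% and 9.6% with LPS, 4.43% and 1.82% with Zymosan, 11.7% and 5.91% with cGAMP, 10.5% and 5.13% with SeV, and 0.953% and 0.0212% with HMW. The median log2 fold change of the 10 genes was 1.27 with PAM, 1.31 with LPS, 1.34 with CpGB and 0.79 with Zymosan, against medians over all genes of 0.03, -0.06, -0.03 and 0.02. With cGAMP, SeV and HMW the median over the 10 genes was 0.25, 0.40 and 0.11. Between the single ligands, 89 of 210 differences passed an edgeR adjusted p of 0.05 (49 higher and 40 lower as ordered), against 8.85% and 9.99% of all tests. In 31 of the 70 comparisons all 3 ligand libraries lay above all 3 Ctrl libraries and in 6 all lay below, against 16.6% and 13.9% of all tests.

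**Figure D1:**
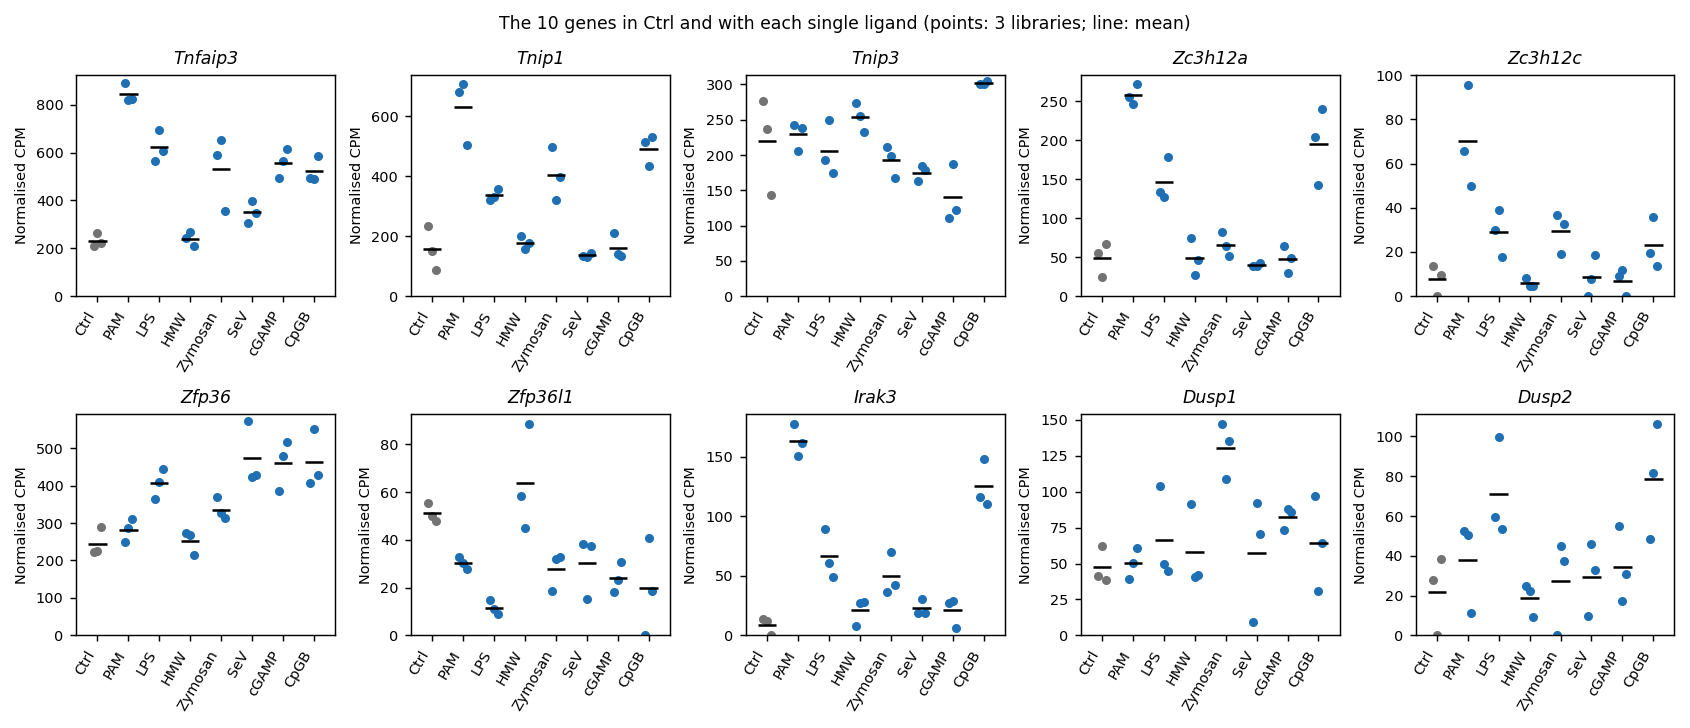
Normalised CPM (vertical axis, linear from 0, one panel per gene) in Ctrl and with each of the 7 single ligands; points are the 3 libraries of a group and the line is their mean. PAM and CpGB stand above Ctrl for Tnip1, Zc3h12a and Irak3, Zymosan gives the highest mean for Dusp1, and no ligand was called for Tnip3.

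Tnfaip3 was the most widely raised of the A20 genes, with 5 of 7 ligands. Its CPM were 208, 262 and 221 in the Ctrl libraries, 892, 819 and 822 with PAM, 566, 693 and 609 with LPS, and 495, 567 and 614 with cGAMP. No library of these 3 ligands overlapped with Ctrl. The log2 fold change was 1.87 with PAM (SE 0.21, edgeR adjusted p = 2.23e-16), 1.44 with LPS, 1.29 with cGAMP, 1.20 with CpGB and 1.17 with Zymosan. With SeV it was 0.61 (edgeR adjusted p = 0.0392), under the fold threshold, and with HMW 0.06. In the order of levels PAM exceeded LPS (log2 difference 0.43, edgeR adjusted p = 0.0150), CpGB exceeded SeV (0.58, 0.00731) and SeV exceeded HMW (0.55, 0.0276), while the differences among LPS, cGAMP, Zymosan and CpGB did not exceed the spread. The Zymosan call fell just under the fold threshold without Zymosan replicate 2 (log2 0.96). With every library thinned to 46564 counts, cGAMP, CpGB and Zymosan fell under it (0.86, 0.81 and 0.67), as did CpGB with library size alone (0.98).

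Tnip1 was called with 4 ligands: PAM, CpGB, Zymosan and LPS. Its libraries held 235, 150 and 86.4 CPM in Ctrl, 682, 709 and 506 with PAM, 514, 434 and 530 with CpGB, and 497, 320 and 397 with Zymosan. With cGAMP they held 211, 140 and 135 CPM and with SeV 134, 130 and 145, inside the range of Ctrl. The log2 fold change was 2.08 with PAM (SE 0.26, edgeR adjusted p = 2.89e-14), 1.71 with CpGB, 1.41 with Zymosan and 1.18 with LPS, against 0.07 with cGAMP and -0.11 with SeV. LPS stood above HMW, its neighbour in the order (log2 difference 0.95, edgeR adjusted p = 5.52e-05), and no other neighbours differed. Without Ctrl replicate 3, the lowest, the LPS value was 0.83 and no longer reached the fold threshold; with library size alone it was 0.88, and after thinning it was 0.27.

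Tnip3 was called with none of the 7 ligands, by edgeR or by DESeq2, and 1 ligand (CpGB) had an unadjusted p under 0.05. Its Ctrl libraries held 277, 237 and 144 CPM, and group means ran from 140 CPM with cGAMP to 302 with CpGB. The 3 CpGB libraries, at 301, 301 and 304 CPM, lay above all Ctrl libraries, with a log2 fold change of 0.51 (edgeR adjusted p = 0.151). Neighbours in this order did not differ, although CpGB exceeded cGAMP at its other end (log2 difference 1.07, edgeR adjusted p = 0.000214).

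Among the genes that act on mRNA, Zc3h12a rose with 3 ligands. It stood at 55.4, 24.9 and 67.2 CPM in Ctrl, 256, 246 and 272 with PAM, 204, 143 and 240 with CpGB and 134, 127 and 179 with LPS. All 9 of these ligand libraries exceeded Ctrl. The log2 fold change was 2.33 with PAM (SE 0.41, edgeR adjusted p = 3.88e-09), 1.93 with CpGB and 1.55 with LPS. LPS exceeded Zymosan, next in the order (log2 difference 1.24, edgeR adjusted p = 0.000373), and with Zymosan, cGAMP, HMW and SeV the group means were 66.0, 47.5, 49.4 and 39.6 CPM against 49.2 in Ctrl. Its relative Zc3h12c was called with PAM, at 65.6, 95.5 and 50.0 CPM against 13.9, 0 and 9.60. That was 38 counts against 2, a ratio of 9.17 (2.37 to 78.5), with an edgeR adjusted p of 0.00144 that became 0.0800 without replicate 2 of all groups.

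Zfp36 passed the p-value but not the fold threshold with 4 ligands. It held 222, 225 and 288 CPM in Ctrl, 573, 422 and 427 with SeV, 385, 479 and 516 with cGAMP, 408, 551 and 429 with CpGB, and 365, 410 and 443 with LPS. These 4 ligands gave log2 fold changes of 0.90 (edgeR adjusted p = 0.00139), 0.90 (0.00102), 0.91 (0.00069) and 0.72 (0.00864), none at the threshold of 1, so that no call was made by edgeR or by DESeq2. With PAM the libraries held 249, 287 and 311 CPM, overlapping Ctrl, and the log2 fold change was 0.19 (edgeR adjusted p = 0.679). Without Ctrl replicate 3 the values for SeV, cGAMP and CpGB were 1.06, 1.06 and 1.07 and passed the threshold, as they did with no filter (1.12, 1.11 and 1.11).

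Zfp36l1 was the gene called lower. Its Ctrl libraries held 55.4, 49.9 and 48.0 CPM and the LPS libraries 14.9, 11.1 and 8.95. The log2 fold change was -2.11 (SE 0.79, edgeR adjusted p = 0.0185) on 6 counts against 13. With PAM, Zymosan, SeV, cGAMP and CpGB the 3 libraries also lay below all Ctrl libraries, with log2 values from -1.12 to -0.70 that did not pass. The highest level of any group was with HMW, at 58.2, 44.8 and 88.3 CPM, and HMW exceeded LPS by a log2 difference of 2.45 (edgeR adjusted p = 0.000564). The LPS call rested on few counts and was lost with no filter (edgeR adjusted p = 0.120), without Ctrl replicate 1 (0.0570) and without LPS replicate 3 (0.0692).

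Irak3 rose with 4 ligands from a very low Ctrl level. It had counts of 2 in Ctrl, 86 with PAM, 65 with CpGB, 34 with LPS and 24 with Zymosan. In CPM the libraries stood at 13.9, 12.5 and 0 in Ctrl, 177, 151 and 161 with PAM, and 116, 148 and 111 with CpGB. All PAM and CpGB libraries lay above 100 CPM. Scaled to depth, the ratio to Ctrl was 20.8 (5.58 to 174) with PAM, 16.2 (4.30 to 136) with CpGB, 8.10 (2.08 to 69.6) with LPS and 6.42 (1.59 to 56.1) with Zymosan. The Zymosan call (edgeR adjusted p = 0.0341) was not made by DESeq2 (0.151) or with library size alone (0.0523) and was lost without any of the 3 Ctrl libraries (0.0537, 0.0633 and 0.251) and without Zymosan replicate 2 (0.141). After thinning, LPS was at an edgeR adjusted p of 0.0507.

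The MAP kinase phosphatases were each called with 1 ligand, Dusp1 with Zymosan and Dusp2 with CpGB, and DESeq2 made neither call. Dusp1 stood at 41.6, 62.4 and 38.4 CPM in Ctrl and 147, 109 and 135 with Zymosan. The other 6 ligands had group means of 50.3 to 82.3 CPM, and Zymosan exceeded PAM, LPS, HMW, SeV and CpGB by log2 differences of 1.05 to 1.34 in tests that do not use Ctrl (edgeR adjusted p from 0.00608 to 0.0284). Against Ctrl the log2 fold change was 1.45 (SE 0.53, edgeR adjusted p = 0.0341), a call that was not made by DESeq2 (0.0849), with RLE factors (0.0629) or with library size alone (0.0604) and that was lost without Ctrl replicate 1, Ctrl replicate 3, Zymosan replicate 1 or Zymosan replicate 3 (0.0696 to 0.185). Dusp2 stood at 27.7, 0 and 38.4 CPM in Ctrl and 48.5, 81.7 and 106 with CpGB. Its log2 fold change was 1.82 with CpGB (SE 0.73, edgeR adjusted p = 0.0229) and 1.57 with LPS (0.0524). CpGB stood above LPS by a log2 difference of 0.25 (SE 0.40, edgeR adjusted p = 0.815), and LPS passed the edgeR test without LPS replicate 3 (0.0379), without Ctrl replicate 3 (0.0452), with no filter (0.0224) and after thinning (0.0431). The CpGB call was not made by DESeq2 (0.0551) and was lost without Ctrl replicate 2 (0.141) and without CpGB replicate 3 (0.124).

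With several ligands present, more of the brakes stood above Ctrl. Of 210 comparisons of pairs with Ctrl, 106 were called higher and 10 lower (13.7% and 8.44% of all tests), and of 350 comparisons of triplets 220 were higher and 29 lower (15.7% and 10.2%). Tnfaip3 was called higher in all 21 pairs and all 35 triplets, from the Ctrl mean of 230 CPM to a highest mean of 1863 in PAM + LPS + cGAMP (libraries at 1980.0, 1894 and 1713). Tnip1 was higher in 16 pairs and 32 triplets, with its highest mean, 666 CPM, in PAM + Zymosan; each of its 8 misses held cGAMP or was HMW + SeV. Zc3h12a was higher in 15 pairs and 31 triplets, up to 379 CPM in PAM + Zymosan + CpGB (392, 332 and 414), and its lowest mean was 31.1 CPM in SeV + cGAMP. All 10 of its misses were combinations of HMW, Zymosan, SeV and cGAMP alone. Irak3 was higher in 15 pairs and 28 triplets, with its lowest mean in HMW + SeV (8.63 CPM) and its highest in PAM + CpGB (189 CPM).

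Zfp36, under the threshold with every single ligand, was called higher in 10 pairs and 30 triplets. Its highest mean was 941 CPM in PAM + LPS + Zymosan (693, 1155 and 974 in the libraries) against 245 in Ctrl. Dusp1 was higher in 8 pairs and 24 triplets and Dusp2 in 9 and 23, both with their highest mean in LPS + cGAMP + CpGB: 383 CPM for Dusp1 (352, 444 and 354) and 219 for Dusp2 (176, 304 and 177). The lowest means were 37.6 CPM in PAM + CpGB for Dusp1 and 18.9 with HMW for Dusp2. Zc3h12c was higher in 10 pairs and 11 triplets, and in no condition was it above its mean of 70.4 CPM with PAM alone. Tnip3 was higher in 2 pairs and 6 triplets, all with LPS or CpGB, with a maximum of 651 CPM in LPS + HMW + CpGB (690, 607 and 655), and lower in 2 pairs and 2 triplets. The lowered conditions were Zymosan + cGAMP, SeV + cGAMP, HMW + Zymosan + cGAMP and Zymosan + SeV + cGAMP. Zfp36l1 was lower in 8 pairs and 27 triplets. Without replicate 1, 2 or 3 of all groups it was lower in 5, 3 and 7 pairs and in 14, 13 and 13 triplets, with no filter in 4 and 15, with library size alone in 13 and 34, and by DESeq2 in 11 and 28. In SeV + cGAMP + CpGB it had 0 counts in all 3 libraries, which allows up to 9.36 CPM, at least 5.46-fold lower than Ctrl against a floor of 3 counts over the group. These conditions share the Ctrl libraries, so that an error in Ctrl enters all of them.

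**Figure D2:**
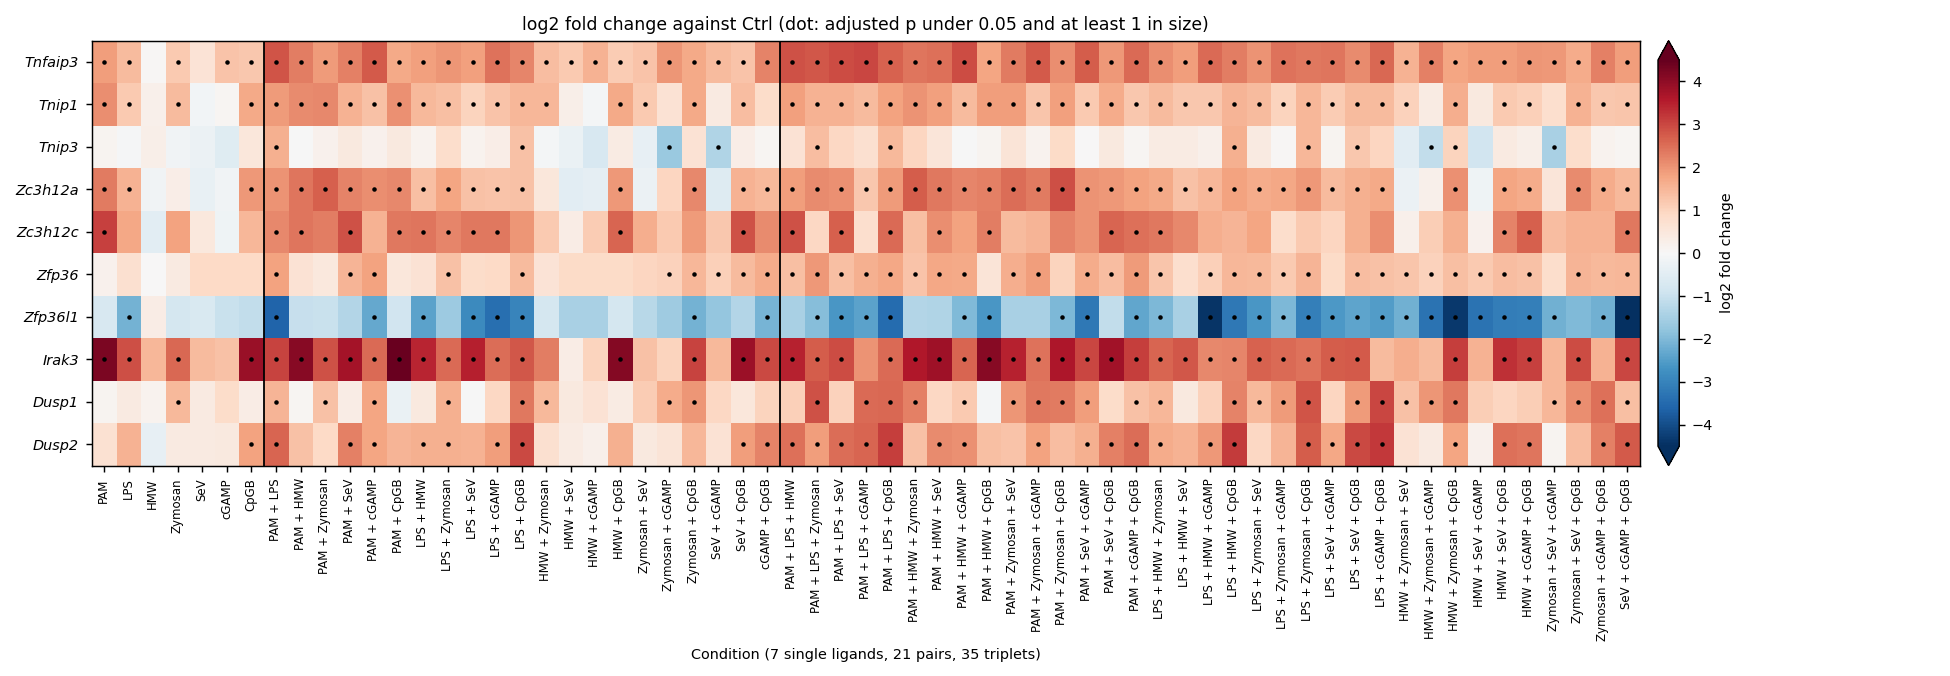
log2 fold change against Ctrl (colour) of the 10 genes (rows) in the 7 single ligands, 21 pairs and 35 triplets (columns); a dot marks an edgeR adjusted p under 0.05 with a change of at least 1 in size. The Tnfaip3 row is dotted in all 56 pairs and triplets, Zfp36l1 has 36 negative dots with the 1 for LPS alone, and Tnip3 has 8 positive and 4 negative dots.

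To ask whether a pair acted as the sum of its ligands, the interaction was tested for each pair, as the log2 level of the pair and of Ctrl less the log2 levels of the ligands alone. Of 210 tests 2 were higher than the sum and 16 lower, against 1.08% and 3.5% of all tests. The lower ones fell on genes that both ligands raised alone. The same Ctrl libraries enter those calls and the interactions, so they are not independent. Tnip1 had 6, for every pair of PAM, LPS, Zymosan and CpGB, from -1.75 with PAM + CpGB (SE 0.31, edgeR adjusted p = 1.20e-06) to -1.24. In PAM + CpGB the Tnip1 libraries stood at 763, 526 and 584 CPM, a mean of 624 against 632 with PAM alone and 493 with CpGB alone. Tnfaip3 had 2, PAM + CpGB at -1.37 (SE 0.26, edgeR adjusted p = 1.15e-05) and PAM + Zymosan at -1.11. With PAM + CpGB Tnfaip3 stood at 725, 800 and 712 CPM, a mean of 746 between CpGB (524) and PAM (845). Zc3h12a had 3, at -2.16 with LPS + CpGB (SE 0.49, edgeR adjusted p = 6.72e-05), -2.12 with PAM + CpGB and -1.86 with PAM + LPS. In LPS + CpGB its libraries held 104, 119 and 150 CPM against means of 147 with LPS and 196 with CpGB.

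Irak3 had 5 interactions below the sum, from -4.14 in PAM + LPS (SE 1.16, edgeR adjusted p = 5.71e-05) to -3.42, all of which rest on 2 Ctrl counts. Comparisons without Ctrl gave a fall when LPS joined PAM or CpGB. PAM + LPS stood at 128, 64.1 and 46.1 CPM against a mean of 163 with PAM, a log2 difference of -1.22 (SE 0.33, edgeR adjusted p = 0.00122). LPS + CpGB had a mean of 60.3 CPM against 125 with CpGB, a log2 difference of -1.09 (SE 0.37, edgeR adjusted p = 0.0252). No interaction of Zc3h12c, Zfp36l1, Dusp1 or Dusp2 was called by edgeR or by DESeq2; at an unadjusted p under 0.05 there were 3 for Zc3h12c, 1 for Dusp1 and 0 for the others. The 2 interactions above the sum were both in PAM + LPS: Tnip3 at 1.55 (SE 0.33, edgeR adjusted p = 0.000246) and Zfp36 at 0.90 (SE 0.29, 0.0323). After thinning, the Tnip3 interaction was 0.93 (edgeR adjusted p = 0.287). Over the 8 genes then tested, 1 interaction was above the sum and 7 below, against 2 and 16. The Zfp36 interaction was lost with no filter (edgeR adjusted p = 0.302) and without any of 8 single libraries, all 3 of Ctrl among them (0.0514 to 0.229).

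A pair that exceeds each of its ligands by a log2 of 1 needs no Ctrl library for the comparison. By that rule 6 of 210 tests were higher and 1 lower, against 0.353% and 0.0504% of all tests. The largest excess was Dusp1 with LPS + CpGB: 265, 272 and 212 CPM against 104, 49.9 and 44.7 with LPS and 97.0, 30.6 and 64.6 with CpGB. The groups did not overlap, and the excess over the higher ligand was 1.98 on the log2 scale (edgeR adjusted p = 1.26e-06). Tnip3 with PAM + LPS stood at 519, 743 and 652 CPM, against 243, 206 and 239 with PAM and 194, 249 and 175 with LPS, an excess of 1.504 (7.10e-11) in a gene called with neither ligand alone. These 2 results held in every fit that left out 1 library. At a thinned depth of 46564 counts per library neither passed (edgeR adjusted p = 0.486 and 0.108). The excess there was 1.34 for Dusp1 and 0.95 for Tnip3. With another ligand added, the Tnip3 mean of 638 CPM in PAM + LPS fell to 333 with HMW and 351 with cGAMP. Both falls passed (log2 difference -0.96 and -0.87, edgeR adjusted p = 0.00059 and 0.000234). With SeV, Zymosan and CpGB the means were 404, 549 and 589 CPM, and those falls did not pass.

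Zfp36 also exceeded both ligands in PAM + LPS, with 574, 930 and 1025 CPM against 249 to 311 with PAM and 365 to 443 with LPS (excess 1.09, edgeR adjusted p = 4.99e-08; 0.92 without PAM + LPS replicate 3 and 0.90 with library size alone). Dusp1 in the same pair stood at 54.7, 166 and 156 CPM, an excess of 1.14 (edgeR adjusted p = 0.0475) in which the first library lay within the range of the single ligands. Dusp2 exceeded both ligands in PAM + SeV, at 103, 122 and 119 CPM (1.60, edgeR adjusted p = 0.0179), and in LPS + CpGB, at 225, 164 and 188 (1.16, 0.0417). Library 1 of PAM + LPS was the lowest of its group for Zfp36, Tnip3 and Dusp1 and the highest for Irak3. The calls of Dusp1 in PAM + LPS and of Dusp2 in LPS + CpGB, named after their values were seen, were not made with RLE factors (0.0824 and 0.0642), with library size alone (0.164 and 0.116) or by DESeq2 (0.166 and 0.143), and were lost without any of 5 single libraries for Dusp1 in PAM + LPS (0.0507 to 0.463) and any of 8 for Dusp2 in LPS + CpGB (0.05004 to 0.234). Dusp2 in PAM + SeV was lost with library size alone (0.0718) and without PAM replicate 3 (0.273), SeV replicate 1 or 3 (0.0790 and 0.0724) or PAM + SeV replicate 2 or 3 (0.102 and 0.0754). After thinning the excess was 0.10 for Dusp1 in PAM + LPS, 0.54 for Dusp2 in LPS + CpGB and 0.78 for Dusp2 in PAM + SeV (edgeR adjusted p = 0.998, 0.997 and 0.889).

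Tnip3 was the 1 gene below both ligands, in Zymosan + cGAMP. It stood at 81.6, 70.4 and 53.2 CPM against 212, 198 and 168 with Zymosan and 110, 187 and 123 with cGAMP. The deficit below the lower ligand was -1.11 (edgeR adjusted p = 0.0408), without overlap, and was lost with no filter (0.113), without any library of the pair (0.0538, 0.1004 and 0.347) and without cGAMP replicate 2 or 3 (0.488 and 0.0554). Over triplets, 1 of 350 tests exceeded all 3 pairs (0.0115% of all tests): Dusp1 in PAM + LPS + Zymosan, at 256, 394 and 383 CPM. Its pairs had means of 125, 120 and 137 CPM, and 1 library of LPS + Zymosan stood at 249.98 CPM, close to the lowest of the triplet. The excess of 1.27 (edgeR adjusted p = 0.00571) lost its call without replicate 1, 2 or 3 of all groups (0.282, 0.0696 and 1.00) and after thinning, where it was 0.95.

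**Figure D3:**
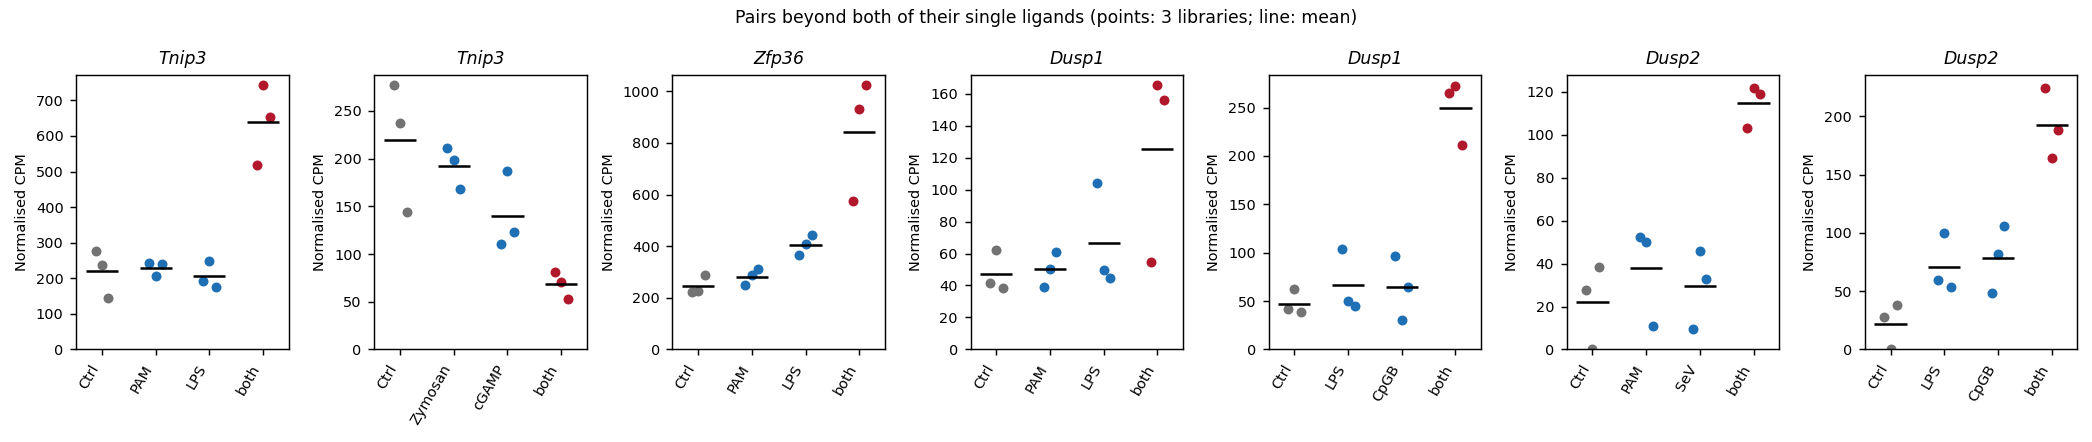
Normalised CPM (vertical axis, linear from 0) in Ctrl, with each ligand alone and with both, for the pairs that stood above or below both of their ligands; points are the 3 libraries and the line is their mean. For Dusp1 with LPS + CpGB and Tnip3 with PAM + LPS all 3 pair libraries lie above every library of Ctrl and of the single ligands, and for Tnip3 with Zymosan + cGAMP all 3 lie below.

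What each ligand did in company was read by adding it to 21 backgrounds, the 6 other single ligands and their 15 pairs, and averaging the log2 difference between groups with and without it. Ctrl and the ligand alone do not enter. Of 70 such contrasts 37 were higher and 11 lower, against 20% and 18% of all tests. Tnfaip3 rose with all 7 ligands: PAM added 0.99 (SE 0.03, edgeR adjusted p = 8.84e-83), LPS 0.85 and cGAMP 0.73, each higher in 21 of 21 backgrounds. Smaller averages came with Zymosan (0.36, higher in 20 of 21), CpGB (0.32, 16), HMW (0.22, 19) and SeV (0.19, 15), and CpGB had a called fall of 0.54 on PAM + HMW. After thinning HMW and SeV did not pass (edgeR adjusted p = 0.0677 and 0.127). HMW raised no other gene of the 10 (7.61% of all genes rose and 2.14% fell). The shares of all genes that rose and fell were 19.9% and 17.5% with PAM, 28.7% and 27.8% with LPS, 20.4% and 20.1% with Zymosan, 19% and 13.7% with SeV, 27.4% and 28.3% with cGAMP, and 17.2% and 16.4% with CpGB. Groups with PAM had a median of 1318 CPM of Tnfaip3 (22 groups) and groups without it 845 (41 groups), whereas with CpGB, SeV and HMW the median was lower with the ligand (898, 858 and 858 CPM) than without it (943, 1051 and 984). Here and below, such medians cover other groups than the contrasts. Groups with a ligand include it alone, and groups without it include triplets that are not backgrounds. The number of ligands thus differs between the sets, and Tnfaip3 had a median of 532 CPM in single ligands and 1146 in triplets.

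cGAMP split the A20 genes. While Tnfaip3 rose in every background, Tnip1 fell by 0.41 (SE 0.04, edgeR adjusted p = 1.42e-17; lower in 17 of 21 backgrounds) and Tnip3 fell by 0.46 (SE 0.05, 3.10e-15; lower in 17 of 21). SeV gave smaller averages in opposite directions, 0.19 for Tnfaip3 and -0.13 for Tnip1. That fall of Tnip1 (edgeR adjusted p = 0.0103, lower in 15 of 21 backgrounds) was lost without replicate 1 of all groups (0.491). Tnip1 stood at a median of 336 CPM in the 22 groups with cGAMP and 434 in the 41 without, and Tnip3 at 223 and 286. PAM raised Tnip1 by 0.71 in 21 of 21 backgrounds, CpGB by 0.40 on average (higher in 16), LPS by 0.28 (11) and Zymosan by 0.24 (13). With LPS 10 backgrounds were lower, with a called fall of 0.60 on PAM + Zymosan (edgeR adjusted p = 0.00507). Tnip3, called with no ligand alone, rose by 0.88 with LPS (SE 0.05, edgeR adjusted p = 3.10e-43; higher in 20 of 21), 0.74 with CpGB (19) and 0.59 with PAM (17).

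Of the genes that act on mRNA, Zc3h12a rose by 1.37 with PAM (SE 0.06, edgeR adjusted p = 5.92e-59; 20 of 21), 0.90 with CpGB (15 of 21), 0.59 with LPS and 0.43 with Zymosan (21 of 21, although Zymosan alone gave no call), and fell by 0.16 with SeV (edgeR adjusted p = 0.0437, lost without replicate 1 or 3 of all groups). The average for LPS covered 12 backgrounds higher and 9 lower, with a called fall of 0.87 on PAM + cGAMP, and the median of Zc3h12a was 162 CPM in groups with LPS and 177 in those without. Zc3h12c rose with PAM (0.52, higher in 16 of 21) and CpGB (0.51, 12 of 21), both lost without replicate 2 of all groups (edgeR adjusted p = 0.184 and 0.0518), and fell by 0.32 with cGAMP, lost without replicate 1 or 3. Zfp36 rose with 6 ligands by 0.29 to 0.47 on average (higher in 14 to 19 of 21 backgrounds), HMW being the exception at 0.05. With those 6 ligands the rise was called in 7 to 13 backgrounds. The median of Zfp36 was lower with cGAMP and Zymosan (594 and 603 CPM) than without them (608 and 616). It was higher with PAM, LPS, SeV and CpGB than without them. Zfp36l1 fell by 1.42 with LPS (SE 0.22, edgeR adjusted p = 2.87e-11) and was lower in 21 of 21 backgrounds. Over the 20 backgrounds that leave out the group at 0 counts, an alternative chosen after seeing the data, it fell by 1.01 with cGAMP (edgeR adjusted p = 1.28e-05), by 0.82 with CpGB (0.00105) and by 0.50 with SeV (0.0457). The median of Zfp36l1 was 8.29 CPM in the 22 groups with LPS and 16.3 in the 41 without.

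Irak3 rose by 0.87 with PAM (SE 0.10, edgeR adjusted p = 1.03e-14; higher in 16 of 21) and 0.69 with CpGB (15 of 21), and fell by 0.78 with cGAMP (SE 0.11, 4.90e-10; lower in 17 of 21 backgrounds) and by 0.37 with Zymosan (0.00461). The effect of cGAMP ran from a rise of 1.24 on HMW + SeV to a fall of 1.71 on PAM. LPS, which raised Irak3 alone, added 0.08 (edgeR adjusted p = 0.495), with 3 backgrounds called higher and 4 lower. The fall with Zymosan was lost without replicate 2 of all groups (0.0664).

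Dusp1 rose most with Zymosan, by 1.29 (SE 0.08, edgeR adjusted p = 4.25e-40) and in 21 of 21 backgrounds, and cGAMP raised it by 0.79 in 21 of 21. LPS added 0.84 (higher in 19 of 21), CpGB 0.74 (18) and PAM 0.51 (16) on average, and these varied with the background. LPS ran from 2.88 on PAM + CpGB to -0.41 on SeV, CpGB from 2.08 on LPS + cGAMP to -0.45 on PAM + cGAMP, and PAM from 1.61 on LPS + cGAMP to -0.60 on CpGB. Groups with Zymosan had a median of 180 CPM of Dusp1 and groups without it 92.1. Dusp2 rose with CpGB by 1.23 (SE 0.10, edgeR adjusted p = 4.76e-27; 20 of 21) and LPS by 1.19 (21 of 21), then PAM by 0.80 (18 of 21) and cGAMP by 0.34 (15 of 21; edgeR adjusted p = 0.00307, lost without replicate 3 of all groups and with library size alone, at 0.130 and 0.0616). Zymosan, the leading ligand for Dusp1, gave -0.11 for Dusp2 (edgeR adjusted p = 0.451), and a test of the difference between the phosphatases was not run.

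**Figure D4:**
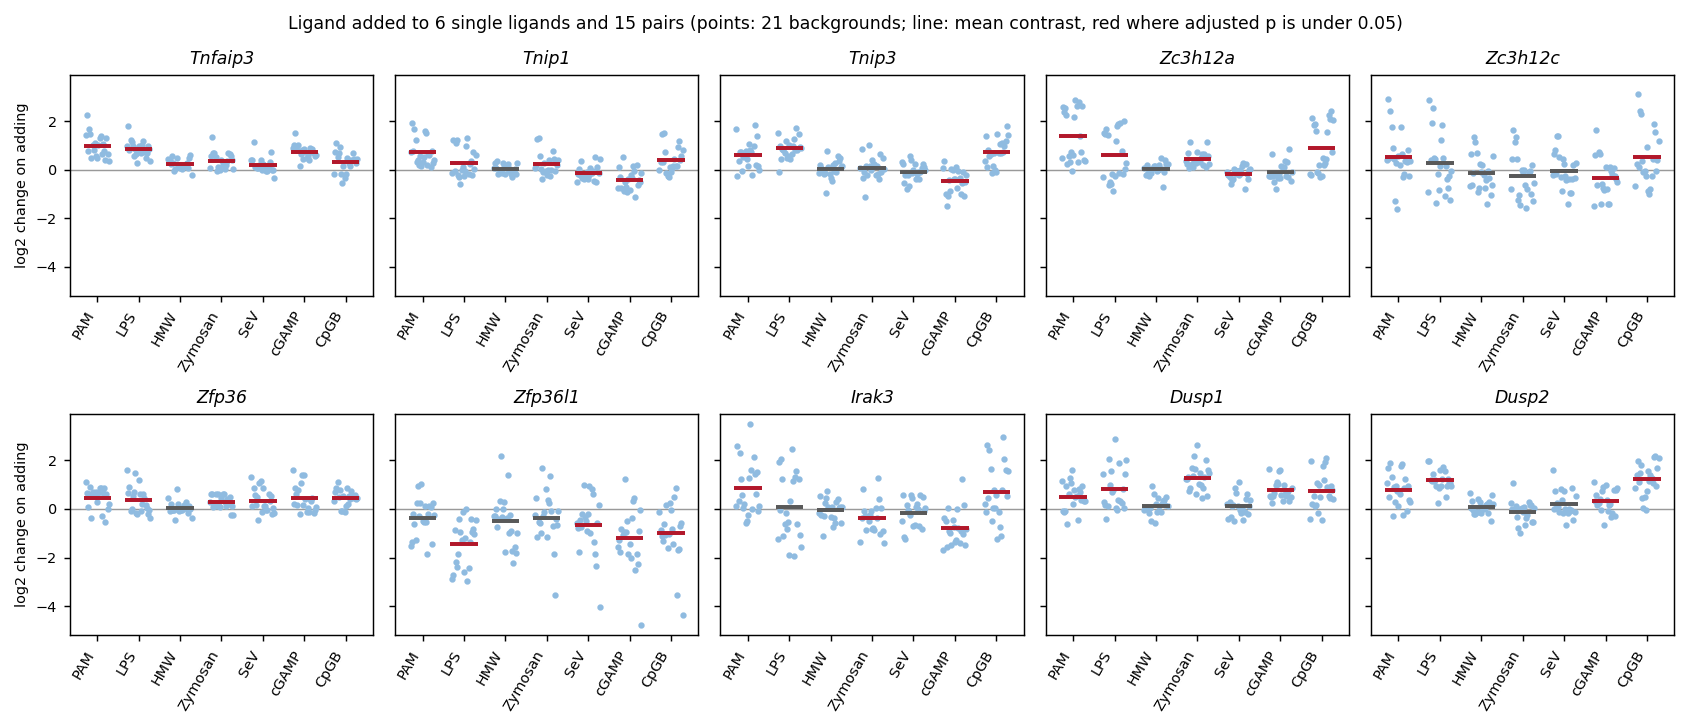
log2 difference between groups with and without a ligand (vertical axis), one panel per gene; points are the 21 backgrounds and the line is the mean contrast, red where its edgeR adjusted p is under 0.05. For cGAMP all 21 points lie above 0 for Tnfaip3 and Dusp1, and 17 of 21 lie below 0 for Tnip1, Tnip3 and Irak3.

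Over the 64 group means of log2 CPM the 10 genes did not form 1 block. These correlations are descriptions: groups share ligands, and low-count genes are noisier. Tnip1, Zc3h12a and Irak3 ran together (Pearson r of 0.86 for Tnip1 and Zc3h12a, 0.78 for Tnip1 and Irak3, 0.76 for Zc3h12a and Irak3), and Zc3h12c went with Irak3 (0.75). Tnfaip3 and Zfp36 were at 0.69, Zfp36 and Dusp1 at 0.61, and Tnip3 and Dusp2 at 0.70. Zfp36l1 ran against Tnfaip3 (-0.60), and Irak3 and Dusp1 had an r of -0.26.

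**Figure D5:**
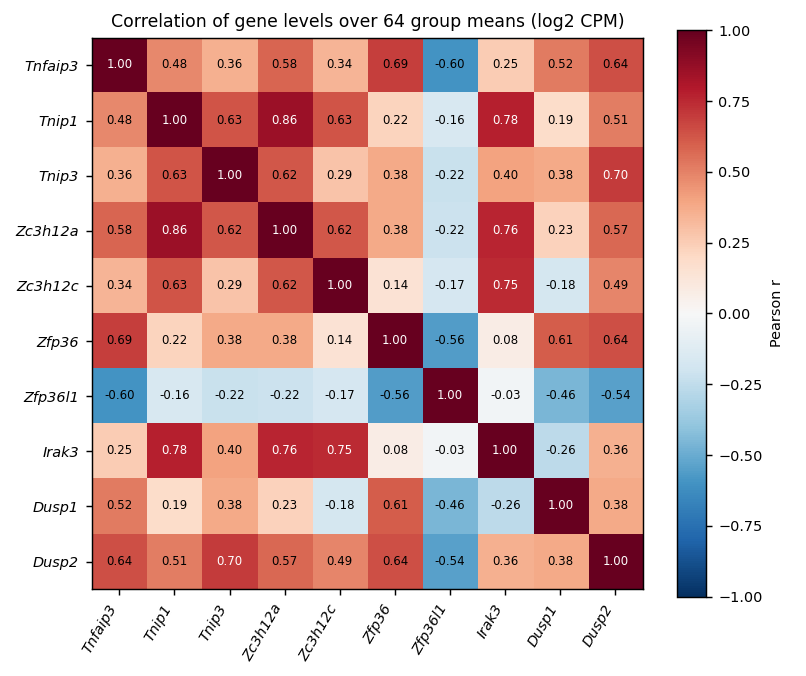
Pearson correlation (colour) of log2 CPM between the 10 genes over the 64 group means, genes on both axes. The highest value off the diagonal is 0.86 for Tnip1 with Zc3h12a, and Zfp36l1 is negative with each of the other 9 genes, from -0.60 with Tnfaip3 to -0.03 with Irak3.

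Outside the 10, the 3 tested genes most like each were listed by the same r over 64 groups, where the median r over all tested genes lay between -0.05 and 0.05 for each gene. Zc3h12a was closest to Il1b (0.93), an inflammatory cytokine gene, then Acpp (0.91) and Saa3 (0.90). Tnip1 was closest to Slc7a11 (0.90), Ccl9 (0.90) and Cxcl3 (0.89), and Tnfaip3 to Slc7a2 (0.89), Nfkbia (0.88), which encodes the inhibitor of NF-kappaB, and Cflar (0.87). Dusp2 was closest to Il12b (0.90), Gadd45b (0.89) and Fcer1g (0.88), Irak3 to Syk (0.89), Marco (0.88) and Osbpl3 (0.87), and Zfp36 to Edn1 (0.84), Ccl4 (0.84) and Tiparp (0.80). Dusp1 was closest to Mdm2 (0.83), Il10 (0.83), which encodes an anti-inflammatory cytokine, and Il1rn (0.83), which encodes the IL-1 receptor antagonist. The likeness was weaker for Tnip3 (Ifitm2 0.82, Batf 0.81, Fcgr2b 0.79), Zc3h12c (Ehd1 0.76, Cpd 0.75, Marco 0.75) and Zfp36l1 (Fads1 0.74, Cotl1 0.72, Scd2 0.72).

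Partners of the 10 genes were followed as 5 lists against Ctrl in the single ligands. Over the 43 genes tested and the 7 ligands, 59 of 301 comparisons were called higher (19.6%) and 9 lower (2.99%), against 8.7% and 4.95% of all tests. The 11 tested targets of the decay factors made 35 of the 59 higher calls, and the other 4 lists had 24 of 224 comparisons higher (10.7%) and 9 lower (4.02%). Of the A20 and linear ubiquitin list 10 of 12 genes were tested, and 1 call was made, Rnf31 with LPS (from 30.9 to 103 CPM in the mean of 3 libraries, log2 1.87, edgeR adjusted p = 0.00304). Rnf31, the catalytic subunit of the linear ubiquitin ligase, was higher in 31 of the 63 conditions (single ligands, pairs and triplets), where 14.3% of all tests were higher and 9.03% lower. Itch, a ubiquitin ligase that works with A20, was lower in 9 conditions and Sharpin, another subunit of the linear ubiquitin ligase, in 4, counts near the share of all tests, and neither was called with a single ligand (edgeR adjusted p of at least 0.0525 and 0.176). Of the Myddosome list (8 of 12 tested) PAM raised 2 (8.01% of all genes), LPS 3 (14.6%), SeV 3 (10.5%), cGAMP 3 (11.7%) and CpGB 2 (10.8%). With Zymosan and with HMW 0 of the 8 were called by edgeR or by DESeq2, and 2 with each had an unadjusted p under 0.05, all higher. Myd88 was higher in 59 of 63 conditions, Irak2 in 56 and Peli1 in 54. Irak1, named after its values were seen, was lower in 14. Peli1, a ubiquitin ligase, went from 71.9 ± 35.2 CPM in Ctrl to 691 ± 36.0 with cGAMP (SD, n = 3).

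The list for decay and stability of mRNA had 12 of 17 genes tested, and with single ligands 8 of 84 comparisons were higher (9.52%) and 4 lower (4.76%), about the shares of all tests. Of the 12 genes, 3 held nearly all calls over the 63 conditions, and the other 9 were called in 0 or 1 condition each. Zfp36l2, a relative of Zfp36 and Zfp36l1, was lower in 41 of 63 conditions: it stood at 300 ± 31.9 CPM in Ctrl, 53.3 ± 15.1 with LPS (log2 -2.43, edgeR adjusted p = 5.51e-10), 73.1 ± 11.6 with CpGB and 79.5 ± 16.2 with PAM, but 287 ± 32.4 with cGAMP (SD, n = 3). N4bp1, which encodes an RNase related to Regnase-1, was higher in 59 conditions. Arid5a, which encodes a protein that stabilises inflammatory mRNAs, was higher in 53, and alone it rose with SeV (132 ± 42.0 CPM), cGAMP (144 ± 60.9) and LPS (89.95 ± 23.5) from 7.82 ± 7.10 in Ctrl. Of the MAP kinase phosphatase list 2 of 10 passed the filter. Dusp3 was lower in 60 of 63 conditions, falling from 327 ± 60.4 CPM in Ctrl to 45.2 ± 5.99 with CpGB, and Dusp16 was higher in 42, reaching 74.3 ± 18.2 CPM with PAM from 8.31 ± 14.4 (SD, n = 3).

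Known targets of the decay factors rose with most ligands that raised the brakes. Of 11 tested (12 listed), PAM raised 9 (8.01% of all genes), CpGB 9 (10.8%), LPS 7 (14.6%), Zymosan 7 (4.43%), cGAMP 2 (11.7%) and SeV 1 (10.5%), the last no more than the share of all genes. With HMW 0 of 11 were called by edgeR or by DESeq2, and 0 had an unadjusted p under 0.05. The median log2 fold change of this list was 3.24 with PAM, 3.51 with CpGB, 2.37 with LPS and 1.97 with Zymosan, against 0.60 with cGAMP, 0.38 with SeV and -0.11 with HMW. Tnf was higher in 62 of 63 conditions and went from 856 ± 254 CPM in Ctrl to 8099 ± 526 with PAM (SD, n = 3). Ccl3 was higher in 60 and Ptgs2, which encodes cyclooxygenase-2, in 57. Levels of mRNA measured here do not separate its synthesis from its decay.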

How the data were processed

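RNA of stimulated dendritic cells was reverse transcribed with template switching, pooled as cDNA, tagmented and sequenced, per the labels' protocols. The authors deposited whole-number UMI counts per gene symbol, without normalization; per the submitters' processing notes BWA 0.7.15 and the build mm10 were used, in roles not given in the sources used here, as are the rule for collapsing UMIs and the treatment of reads shared by related genes. Strand use is not stated either. The 10 genes, the gene lists and the tests were chosen with earlier results of these data known. The labels do not say that replicates came from separate cultures or animals, so p-values measure only the spread between these samples.

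The analysis used edgeR 4.0.16 under R 4.3.3. filterByExpr kept 4720 of 23481 genes (95.7% of UMIs), TMM factors scaled the libraries, and 1 quasi-likelihood model with a coefficient per group (128 residual degrees of freedom) gave every contrast, adjusted by Benjamini-Hochberg over the 4720 genes within it. Comparisons with Ctrl needed an adjusted p under 0.05 and a log2 fold change of at least 1; a pair above both ligands needed both differences at that size and the larger p to pass; interactions and added ligands had no fold threshold. Named were the 10 genes, their largest called interaction and excess in each direction, their highest and lowest groups, 3 genes per list called in the most conditions, and the 3 most similar genes. Scripts were tested on simulated data. Alternatives were RLE factors, library size alone, no filter, DESeq2 1.42.0, thinning to 46564 counts, other fold thresholds, a replicate block, fits on the compared groups alone and leaving out replicates. Protein sequences were not used here, and the 3' UTR of 1 gene is not reported here.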

Additional observations from a re-analysis of the deposited data

Results flagged for a closer look

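In 6 interactions the effect of a ligand on a brake depended on whether a second ligand was present, by the test of the interaction itself (log2 scale, edgeR adjusted p under 0.05; the largest of each sign for each gene). In 4 of them the pair stood below the sum of its ligands: Tnfaip3 in PAM + CpGB (-1.37), Tnip1 in PAM + CpGB (-1.75), Zc3h12a in LPS + CpGB (-2.16) and Irak3 in PAM + LPS (-4.14). In these pairs each ligand alone was called higher for the gene, and Irak3 had 2 counts in Ctrl. The same Ctrl libraries enter those calls and the interactions. In 2 of them the pair stood above the sum: Tnip3 in PAM + LPS (1.55) and Zfp36 in PAM + LPS (0.90). After thinning the Tnip3 value was 0.93 (edgeR adjusted p = 0.287). The Zfp36 call was lost with no filter (edgeR adjusted p = 0.302). It was also lost without replicate 1, 2 or 3 of all groups (0.0779, 0.179 and 0.456).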

How the results depend on the processing

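Direction was compared for the 154 single values, and no call among them that could be fitted changed direction under any alternative run. Those are the values with single and with added ligands, the largest interactions, and the pair and triplet values beyond their parts. Other calls in pairs and triplets, other interactions and differences between ligands were compared by count alone. Against TMM, the median of all genes relative to Ctrl shifted by -0.16 (log2) with RLE factors, -0.36 with library size alone, -0.34 with thinning and 0.24 with no filter. RLE factors gave 4 interactions above the sum, against 2. Library size alone gave 16 lower calls in pairs (against 10), 4 interactions above the sum and 2 pair values above both ligands (against 6). Without the filter there were 0 lower calls in single ligands, 6 in pairs and 16 in triplets (against 1, 10 and 29), 1 interaction above the sum and 0 pair values below both ligands. After thinning to 46564 counts 1841 genes passed the filter, Zc3h12c and Zfp36l1 not among them. The 8 genes still tested gave 12 higher and 0 lower calls in single ligands (against 18 and 0 over the same 8), 56 and 1 in pairs (96 and 2), 133 and 3 in triplets (209 and 2), 1 interaction above and 7 below the sum (2 and 16), 1 pair value above and 0 below both ligands (6 and 1), 0 triplet values above all pairs (1), and 5 falls with an added ligand (6). A log2 threshold of 1 left 1 interaction above the sum and 4 rises and 2 falls with an added ligand; no fold threshold gave 20 pair values above both ligands and 4 triplet values above all pairs. Fits on the ligand and Ctrl alone could test 34 of 70 values, all with their call kept; Zfp36l1 was not among them, so the 0 lower calls there show no loss. Fits on a pair, its ligands and Ctrl gave 6 interactions above the sum. The cause of the other moves was not tested. Leaving out replicates gave 16 to 20 higher and 0 to 1 lower calls in single ligands, 86 to 106 and 5 to 9 in pairs, 177 to 222 and 14, 15 or 16 in triplets, 1 to 4 interactions above and 12 to 19 below the sum, 2 to 8 pair values above and 0 to 1 below both ligands, 0 to 1 triplet values above all pairs, 35 to 37 rises and 6 to 13 falls with an added ligand, and 56 to 89 differences between ligands (against 89); lists gave 54 to 64 higher and 9 to 13 lower calls. Fits without 1 library kept the dispersion trend of the full fit. Of the 154 single values, 151 kept their call with RLE factors and 142 with library size alone, as did 144 of 149 with DESeq2 and 104 of 125 after thinning. The labels do not pair the replicate numbers, and the rule for pairing was not met: same-numbered deviations had a median correlation of 0.00815 and 0 of 2016 group pairs had all 3 over 0.1. As a hint from the data and not from the design, most libraries (167) were closest to their own number. With the replicate block all 154 values kept their call, and the counts stayed within 1.5 times. Values of an added ligand over a group at 0 counts could not be fitted for Zfp36l1 without replicate 3 or for Irak3 with cGAMP after thinning. Depth kept Zc3h12c and Zfp36l1 out of the thinned tests.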

Other observations

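Added to other ligands, cGAMP raised 9 of the 11 tested targets of the decay factors and lowered 1, against 27.4% and 28.3% of all tested genes, with a median added log2 value of 0.98; cGAMP alone raised 2 of them against Ctrl. CpGB raised 11 of 11 (17.2% of all genes), PAM 10 (19.9%), LPS 10 (28.7%), Zymosan 8 (20.4%), SeV 5 (19%) and HMW 3 (7.61%). SeV lowered 3 of the 11 (13.7% of all genes), LPS 1 (27.8%) and Zymosan 1 (20.1%). On the Myddosome list (8 tested) an added Zymosan raised 1 gene and lowered 5, against 20.4% and 20.1% of all genes, with a median added value of -0.28. These lists were chosen with results of these data known.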
